A study of Mus musculus with 19 samples.

Results

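How contact falls with distance along the mouse Shh locus, and how much of each bin's contact is local, was read from 9 merged capture Hi-C maps. Every pair of 10 kb bins from 10 kb to 2 Mb apart was used, 35900 of the 39340 pairs in the captured region, with no choice by signal. The mean signal of all pairs of a separation, in percent of a bin's total, gives the decay curve. Its slope on logarithmic axes was fitted for 20 to 100 kb, 100 to 500 kb and 0.5 to 2 Mb. Local contact is the percent of a bin's total shared with its 8 partners 20 to 50 kb away, and it could be computed for 270 of the 280 bins.

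The study captured the surroundings of the Shh gene on chromosome 5 (mm9 build, chr5:27800001-30600000) in 19 samples in 9 groups, to compare chromatin structure between tissues and engineered deletions. Wild type limb buds (3 samples) and wild type midbrain (2 samples) came from C57BL/6 embryos at E10.5. All other groups carry the strain label G4 and have 2 samples each. Apart from the ES cells, these groups are labelled E10.5 as well. Among limb buds these are ΔCTCF i4i5, ΔCTCF i4i5ZRS, delta-CTCF i4i5ZRSreg, ΔZRSreg (written delta-RSreg for 1 sample) and a homozygous deletion of the Lmbr1 promoter (Lmbr1Δprom/Δprom). The remaining groups are midbrain with ΔCTCF i4i5ZRS and embryonic stem (ES) cells without a deletion. Of the ES cell samples, 1 also carries the E10.5 label, and the labels give neither the extent nor the position of any deletion. Strain differs between the wild type tissues and all other groups, so strain and genotype, or strain and cell type, cannot be told apart in those comparisons.

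Each group was deposited as 1 merged map, so there is no spread between replicates and no test below. Intervals are 95% counting intervals from the recovered contact counts. They cover counting error only, and read pairs counted without molecular barcodes may include copies of 1 molecule. Differences between maps are therefore differences between single merged maps. The maps held 1177173 (limb i4i5) to 3218492 (ES cells) contacts, and limb i4i5, the shallowest, has the widest intervals.

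In Hi-C, 2 stretches of DNA that lie near each other in the fixed nucleus are ligated and counted as a pair. Contact falls with genomic distance along any chromosome, and the steepness of that fall describes how the fibre is folded at each scale. A topologically associating domain is a stretch whose parts contact each other more than their surroundings, and CTCF, a DNA-binding protein that halts the loop-forming cohesin complex, occupies many domain borders. Shh encodes the secreted signal Sonic hedgehog, and its limb enhancer, the ZRS, lies inside an intron of Lmbr1 at the far end of the domain that also holds Shh.

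The label of 1 limb map names the Lmbr1 promoter as deleted, and a promoter sequence of that gene is shown for that reason. It is the RefSeq window of 300 bases around the gene's start in the build GRCm38.p6, chr5:29378341-29378640, minus strand, 5′ to 3′, with each CG pair in capitals.
Lmbr1 promoter: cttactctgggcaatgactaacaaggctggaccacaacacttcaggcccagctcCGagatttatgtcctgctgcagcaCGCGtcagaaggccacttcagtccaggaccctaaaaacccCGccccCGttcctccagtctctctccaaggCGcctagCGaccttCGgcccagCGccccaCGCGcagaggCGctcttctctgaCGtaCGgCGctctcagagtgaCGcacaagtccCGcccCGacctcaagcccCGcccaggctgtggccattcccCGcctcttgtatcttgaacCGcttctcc
The window held 21 CG pairs, against a median of 7 over the 32851 promoter windows of the same length in the RefSeq table, of which 94.6% held at least 1. The deposited maps are in another build (mm9), so this window was not placed on a bin. The labels give no extent of the deletion, so how much of the window it removed is not known.

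Contact fell steeply with distance in all 9 maps. In wild type limb, a bin shared 7.47% of its total with a neighbour at 10 kb (95% interval 7.44 to 7.50), 1.52% with a partner at 50 kb, 0.809% at 100 kb, 0.204% at 500 kb, 0.117% at 1000 kb and 0.0418% at 2000 kb. Across maps, the 10 kb value ran from 6.64% in limb i4i5 to 8.91% in the Lmbr1 promoter deletion. Of the separations compared, the 9 curves lay closest together at 50 kb (1.42% to 1.53%). They spread apart again at long range, from 0.0792% in ES cells to 0.137% in limb i4i5 at 1000 kb.

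**Figure D1:**
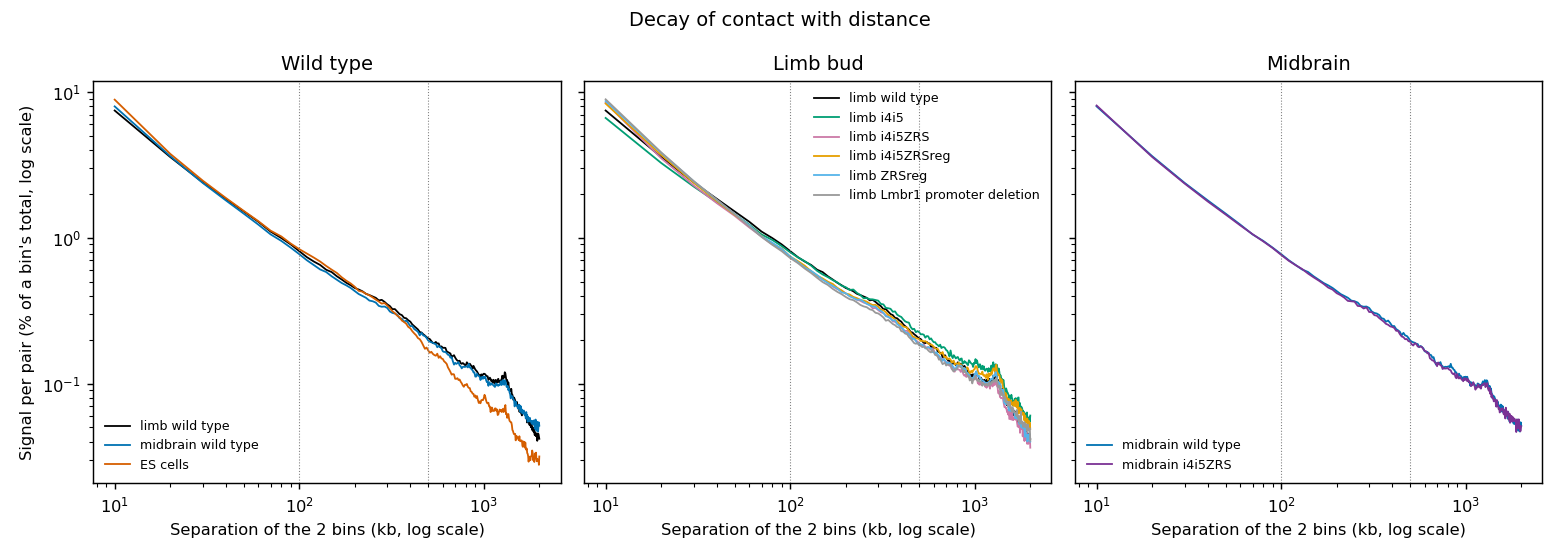
Mean signal per bin pair (percent of a bin's total, log scale) against the separation of the 2 bins (kb, log scale) in the wild type, limb bud and midbrain maps, 1 line per map, with dotted lines at 100 and 500 kb. ES cells leave the other curves beyond about 500 kb, and every curve has a flatter stretch from 1000 to 1300 kb.

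The curves were not straight lines on logarithmic axes. The slope was between -1.03 and -0.87 at 20 to 100 kb, between -0.98 and -0.74 at 100 to 500 kb, and between -1.29 and -0.92 at 0.5 to 2 Mb. In 8 of the 9 maps the middle range was the flattest of the 3. ES cells were the exception, with slopes of -0.93, -0.98 and -1.29 that steepened with each range. The share of the total is a constant factor per map, so a slope does not depend on it.

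In wild type limb the slopes were -0.92 (-0.92 to -0.91), -0.82 (-0.83 to -0.82) and -1.09 (-1.10 to -1.07) for the 3 ranges in order. Wild type midbrain had slopes of -0.95, -0.81 and -0.97. The midbrain curve was thus steeper at short range (difference -0.0389, -0.0478 to -0.0301) and flatter at long range (0.114, 0.0963 to 0.132). The long range difference rested on pairs 1.5 to 2 Mb apart, where the slope was -1.27 in midbrain and -1.93 in limb. Fitted from 0.5 to 1.5 Mb the difference was -0.0213, with the midbrain steeper.

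ES cells differed most from wild type limb among the 8 comparisons in both the middle and the long range. The middle range slope was steeper (difference -0.153, -0.162 to -0.144), and so was the long range slope (-0.204, -0.222 to -0.186). By class of distance, the ES cell map was 18.8% higher at 10 kb and 3.09% higher at 20 to 50 kb. It was 4.72% higher at 110 to 200 kb, but differed by -25.2% at 510 to 1000 kb, -37.9% at 1010 to 1500 kb and -37.6% at 1510 to 2000 kb. At each of the 50 separations in each of these last 3 classes, ES cells lay below limb. Over a total without the bin itself and its 2 neighbours, the ratio to wild type limb was 0.14 (log2) at 200 kb in place of 0.03, and -0.45 at 1000 kb in place of -0.56. Contact in the ES cell map was more concentrated at short range: pairs over 500 kb and up to 2 Mb apart held 8.16% and 4.78% of all signal (510 to 1000 kb and 1010 to 2000 kb), against 10.9% and 7.69% in limb. The midbrain map held 10.4% and 7.46%, close to limb.

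**Figure D2:**
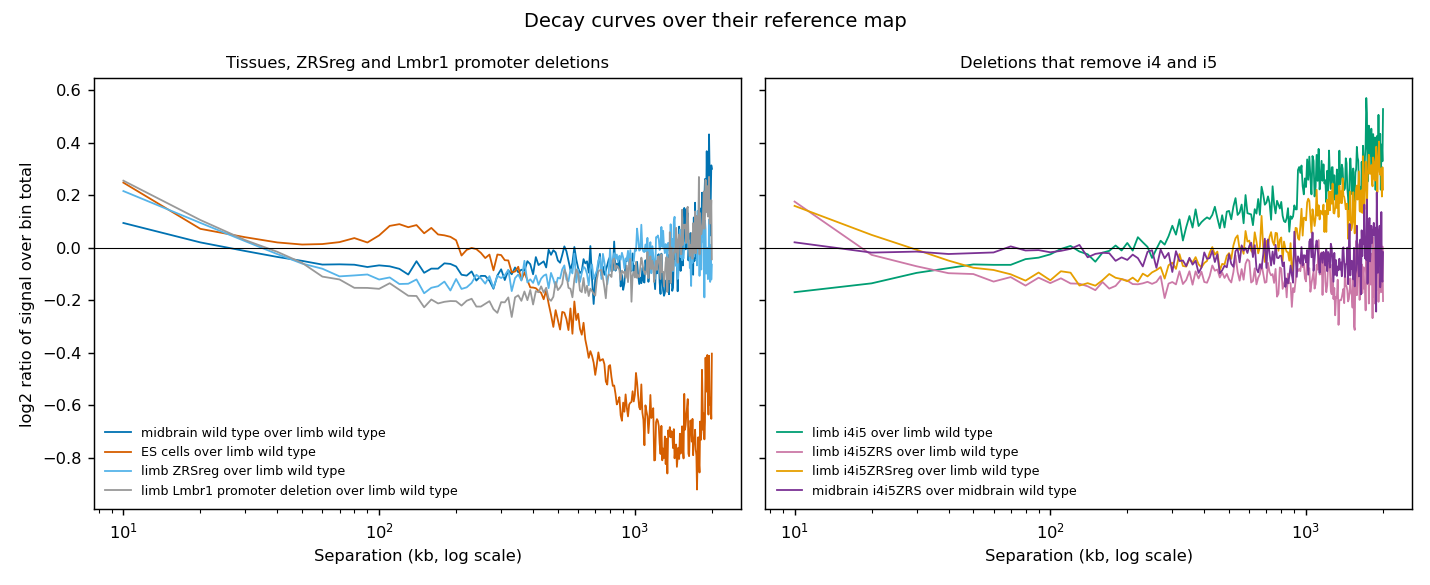
Log2 ratio of the decay curve of each map to its reference map (wild type limb, or wild type midbrain for midbrain i4i5ZRS) against separation (kb, log scale). ES cells are the lowest line beyond 1 Mb, limb i4i5 and limb i4i5ZRSreg lie above 0 there, and midbrain i4i5ZRS stays near 0 throughout.

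Limb i4i5, labelled as a CTCF deletion, differed the other way. Its difference from wild type limb was -11.1% at 10 kb, -6.85% at 20 to 50 kb and -0.768% at 110 to 200 kb, the last within counting error. It was 11.8%, 20.6% and 25.0% higher at 510 to 1000, 1010 to 1500 and 1510 to 2000 kb, at 50 of 50 separations in each class. Its slopes were the flattest of all maps at short range (-0.87) and middle range (-0.74), and its long range slope was -0.96. Over the median of bin pairs in place of the mean, its long range slope differed from that of wild type limb by -0.0024, against 0.128 with the mean. The i4i5 deletion is also in the label of limb i4i5ZRSreg, and that map was 11.7% higher at 10 kb and 11.2% and 17.7% higher at 1010 to 1500 and 1510 to 2000 kb, again at 50 of 50 separations each.

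Limb i4i5ZRS showed no such long range excess. It was 13.0% higher than wild type limb at 10 kb, and its difference was between -9.08% and -7.14% in each class from 60 kb to 2 Mb. This offset moved with the signal nearest the diagonal: pairs within the same bin held 13.9% of all signal in limb i4i5ZRS, the highest of the 9 maps, against 10.4% in wild type limb. Over a total without the bin itself and its 2 neighbours, the ratio to wild type limb was -0.02 (log2) at both 200 and 1000 kb, against -0.13 at both over the whole total. Its long range slope, -1.10, differed from that of wild type limb by less than counting error (difference -0.0119, -0.0306 to 0.0069).

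The 3 limb maps with i4i5 in the label thus did not share a long range slope (-1.10 to -0.92), and neither did the 3 limb maps without it (-1.09 to -0.94). They did not overlap at 100 to 500 kb: slopes of -0.80 to -0.74 with the i4i5 deletion and -0.82 to -0.81 without it. The gap between these sets was smaller than the range within the first.

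The ZRSreg and Lmbr1 promoter deletions, whose labels do not name i4i5, had the steepest short range slopes. They were -1.01 for ZRSreg and -1.03 for the Lmbr1 promoter deletion, steeper than wild type limb (differences -0.0921, -0.100 to -0.0838, and -0.119, -0.127 to -0.111). Both were higher than wild type limb at 10 kb (by 16.1% and 19.4%) and lower at 210 to 500 kb (-8.11% and -12.9%). Over a total without the bin and its 2 neighbours, the log2 ratio at 200 kb was -0.06 in place of -0.12 for ZRSreg and -0.11 in place of -0.20 for the Lmbr1 promoter deletion. At 1000 kb that of the Lmbr1 promoter deletion was -0.02 in place of -0.11, and that of ZRSreg was 0.05 in place of -0.01. Beyond 1 Mb, ZRSreg lay within counting error of wild type limb in both classes, with 26 and 27 of 50 separations higher. The Lmbr1 promoter deletion differed by -4.41% at 1010 to 1500 kb and by 5.37% at 1510 to 2000 kb. These 2 maps share the G4 label with the CTCF deletions. Against their mean in place of wild type limb, the short range slopes of i4i5ZRS and i4i5ZRSreg were no longer steeper but flatter, by 0.0626 and 0.034. The long range difference of i4i5 was 0.0261 in place of 0.128, and that of i4i5ZRSreg 0.0667 in place of 0.168. That of i4i5ZRS, within counting error of wild type limb, was -0.113 against these maps in place of -0.0119.

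The decay curve of midbrain i4i5ZRS lay close to that of wild type midbrain. Of its 8 classes of distance, the largest difference was -3.17%, at 210 to 500 kb. The short and long range slopes differed by less than counting error (differences 0.0044, -0.0050 to 0.0139, and 0.0176, -0.0012 to 0.0364). The middle range slope was steeper (difference -0.0213, -0.0319 to -0.0107), but with medians over bin pairs the difference was -0.00041.

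**Figure D3:**
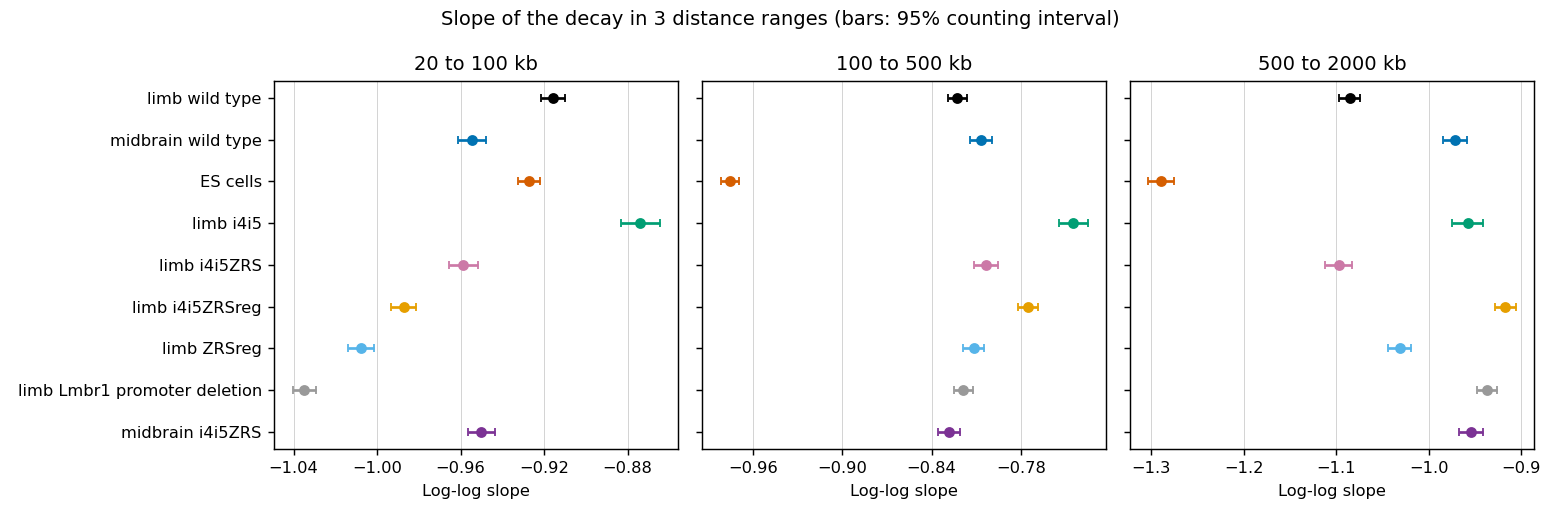
Slope of the decay on logarithmic axes in the ranges 20 to 100 kb, 100 to 500 kb and 500 to 2000 kb, 1 point per map with its 95% counting interval. The points of different maps mostly lie further apart than their intervals, and ES cells stand apart in the middle and long ranges.

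The middle range slope differed more between places in the locus than between maps. The region was divided at the 2 minima of an insulation score averaged over the 9 maps, the bins chr5:28760001-28770000 and chr5:29700001-29710000, 30 kb below and 910 kb above the bin of the Shh promoter (chr5:28790001-28800000). Because these borders come from the same maps, what follows is a description. Within this Shh domain the middle range slope was only -0.58 (ES cells) to -0.42 (wild type midbrain). Within the flanks it was -0.94 (ES cells) to -0.76 on the lower side and -1.03 (ES cells) to -0.77 on the upper side. In wild type limb the values were -0.47 in the domain, -0.81 in the lower flank and -0.85 in the upper flank.

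Inside the domain, contact was below the mean of all pairs nearby and above it far away. In wild type limb, pairs inside it had 0.858 times the mean signal of all pairs at 50 kb, 1.14 times at 200 kb and 1.70 times at 500 kb. At 500 kb this ratio was 1.94 in ES cells, 1.76 in wild type midbrain and 1.66 in midbrain i4i5ZRS. It was lowest in the maps limb i4i5 (1.47) and limb i4i5ZRSreg (1.51), with limb i4i5ZRS at 1.61, ZRSreg at 1.71 and the Lmbr1 promoter deletion at 1.64. The ratio divides by the mean of all pairs, which was highest in limb i4i5 (0.225%). In percent of a bin's total the order differed. Limb i4i5 had 0.331% inside the domain, below only wild type limb (0.346%) and wild type midbrain (0.348%). Limb i4i5ZRSreg had 0.303%, and limb i4i5ZRS and the Lmbr1 promoter deletion were slightly lower.

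Pairs across the upper border differed between maps with and without the i4i5 deletion. At 500 kb their signal over that of all pairs was 0.462 in ES cells, 0.619 in wild type midbrain and 0.633 in wild type limb. It was 0.629 in ZRSreg and 0.661 in the Lmbr1 promoter deletion. It was 0.770 in midbrain i4i5ZRS, and the limb values were 0.811 (i4i5ZRSreg), 0.813 (i4i5ZRS) and 0.836 (i4i5), so the 4 maps with the i4i5 deletion did not overlap the 5 without it. At 1000 kb the groups were also apart, at 0.964 to 0.991 with the deletion and 0.737 to 0.797 without it. At 1500 kb they overlapped. At 200 kb they were apart as well, at 0.729 to 0.775 with the deletion and 0.606 to 0.677 without it. Across the lower border at 1000 kb the order was turned round, 0.857 to 0.965 with the deletion against 1.07 or more without it. This is tied to the upper border ratio. Of the 180 pairs at 1000 kb, 90 crossed the lower border and 83 the upper, and both ratios share 1 mean. In percent of a bin's total the lower border values overlapped, at 0.0919% to 0.132% with the deletion and 0.0901% to 0.133% without it. The upper border values were still apart, at 0.105% to 0.132% against 0.0584% to 0.0911%. A split in the ratios was not particular to the upper border. At 1500 kb the ratios across the lower border were also apart, lower with the deletion. Those from flank to flank were narrowly apart there, at 1.089 or more with the deletion and 1.086 or less without it. Within the upper flank at 50 kb the ratios were narrowly apart too, at 1.087 or less with the deletion and 1.090 or more without it. How many of all places and separations split the maps in this way was not counted.

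Between 1 and 1.3 Mb every curve had a stretch flatter than its slope from 500 to 1000 kb (-1.28 to -0.78), and beyond it contact dropped steeply. These windows, and the bins left out below, were chosen after the curves were seen. In wild type limb the slope was -0.15 (-0.24 to -0.06) from 1000 to 1300 kb and -3.32 (-3.59 to -3.05) from 1310 to 1500 kb. The stretch was flattest in limb i4i5ZRSreg (-0.06) and least flat in ES cells (-0.75). The drop ran from -3.72 in limb i4i5ZRSreg to -2.43 in midbrain i4i5ZRS.

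Pooled over each of the windows below, pairs that join both flanks over the domain had the highest mean signal. At 1220 to 1320 kb in wild type limb, 374 such pairs had a mean signal of 0.209% of a bin's total. The 693 pairs of lower flank and domain had 0.0977%, and the 616 pairs of domain and upper flank 0.063%. The same order held in all 9 maps, with flank to flank pairs at 0.123% (ES cells) to 0.242% (limb i4i5 and limb i4i5ZRSreg, both). At 1350 to 1500 kb the flank to flank value in wild type limb was 0.105%, against 0.0916% for lower flank and domain. At 1500 kb alone the order in wild type limb was turned round, at 0.0723% from flank to flank and 0.0874% across the lower border.

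Domain to upper flank pairs at 1220 to 1320 kb also differed between maps with and without the i4i5 deletion. They were at 0.0295% in ES cells, 0.0597% in ZRSreg, 0.0619% in the Lmbr1 promoter deletion, 0.063% in wild type limb and 0.0641% in wild type midbrain. In limb i4i5ZRS, midbrain i4i5ZRS, limb i4i5ZRSreg and limb i4i5 they were at 0.0696%, 0.0761%, 0.0816% and 0.0936%. At 1350 to 1500 kb the gap was narrower. There limb i4i5ZRS had 0.0552% (0.0531 to 0.0573) and wild type limb 0.0528% (0.0510 to 0.0545), with overlapping intervals.

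Single bins stood out in this stretch. The bin chr5:28490001-28500000, 300 kb below the Shh promoter bin, had the highest signal with partners 1220 to 1320 kb above it in 8 of the 9 maps. It had 0.469% per partner in wild type limb, against a median of 0.0946% over 148 bins. In midbrain i4i5ZRS the leading bin was chr5:28730001-28740000, at 0.248%. Without the 7 bins 310 to 250 kb below the promoter bin, the slope from 1000 to 1300 kb was -0.56 in wild type limb and -1.17 in ES cells. The drop from 1310 to 1500 kb was then -2.39 and -2.68. The flank to flank signal in wild type limb was still the highest of the 3 kinds of pair without them, at 0.176%.

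Local contact varied more along the locus than between maps. Its mean over the 270 bins was lowest in limb i4i5 (17.1%), then 17.6% in limb i4i5ZRS and 18.0% in midbrain i4i5ZRS. Wild type midbrain and limb i4i5ZRSreg both had 18.3%, wild type limb 18.4%, ZRSreg 18.8%, the Lmbr1 promoter deletion 18.9% and ES cells 19.0%. These means share their denominator with the signal nearest the diagonal, and without the bin and its neighbours in the total the ratio of limb i4i5ZRS to wild type limb was 0.05 (log2) in place of -0.06. Within wild type limb, local contact ran from 9.49% to 29.0% with a median of 17.8% and an SD over bins of 3.29 percentage points. Bin profiles of different maps correlated with Pearson's r of 0.86 (ES cells and limb i4i5) to 0.98 (ZRSreg and the Lmbr1 promoter deletion) over 270 bins. Neighbouring bins share pairs in such a profile, and all maps share one capture design.

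**Figure D4:**
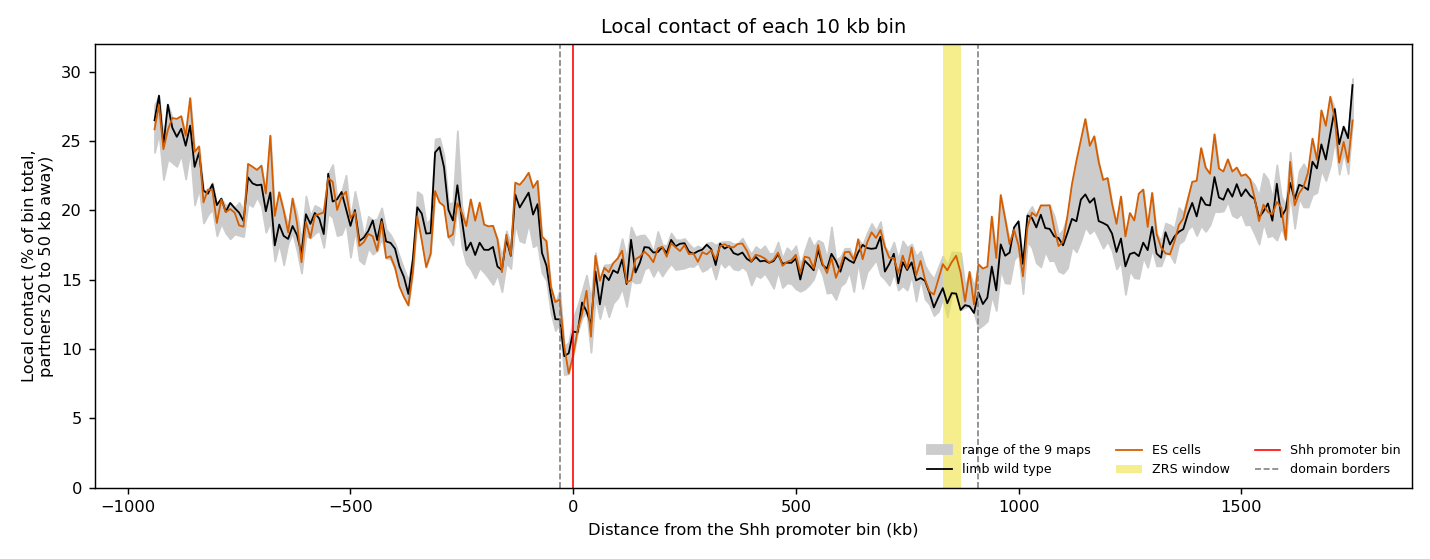
Local contact of each 10 kb bin (percent of the bin's total with partners 20 to 50 kb away) against distance from the Shh promoter bin (kb), with the range of the 9 maps in grey and lines for wild type limb and ES cells. The lowest values sit next to the Shh promoter and the domain is lower than both flanks.

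The Shh domain was the part of the locus with the least local contact. Its 93 bins had a mean of 15.7% ± 1.82 (SD over bins) in wild type limb, against 19.8% ± 3.17 in the 92 bins of the lower flank and 19.7% ± 2.88 in the 85 bins of the upper flank. Over the 9 maps the domain mean was 14.7% to 16.5% and stayed below both flank means (at least 18.6% in the lower and 18.2% in the upper flank). The domain was also the most even, with an SD of 11.6% of its mean in wild type limb.

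The Shh promoter lay at the bottom of the profile. The 5 bins with the lowest mean over the maps were those at -20, -10, 0, 40 and 10 kb from the promoter bin, which holds most of the Shh promoter viewpoint named in the labels. The promoter bin itself ranked 267 to 269 of 270 in every map. It had 11.3% (10.7 to 11.9) in wild type limb. In ascending order the other maps had 9.54% (ES cells), 10.3% (limb i4i5), 10.49% (midbrain i4i5ZRS), 10.99% (limb i4i5ZRS), 11.4% (wild type midbrain), 11.8% (limb i4i5ZRSreg), 12.1% (ZRSreg) and 12.2% (Lmbr1 promoter deletion). ES cells had the lowest value (log2 ratio to wild type limb -0.24, -0.36 to -0.12). The bin faced upward, into the domain: in wild type limb 6.66% came from partners above it and 4.62% from partners below, and partners above gave more in all 9 maps.

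The lower border bin, 30 kb from the promoter bin, was also low, at 11.9% to 14.2%. Beside a border, some partners 20 to 50 kb away lie across it. Local contact and insulation score correlated with r = 0.66 (ES cells) to 0.80 (wild type limb) over 260 bins. The bin at 40 kb rested on few contacts, 170 to 424 per map. Local contact followed a bin's coverage weakly (r with log coverage -0.17 to -0.09 and Spearman's rho -0.23 to -0.15 over 270 bins).

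The 5 bins with the highest local contact lay near the ends of the captured region, at 1750, -930, 1710, -860 and -940 kb. The highest, chr5:30540001-30550000, had 29.0% in wild type limb and 26.5% to 29.5% over the maps. Bins near an end have fewer partners in the region on 1 side, and the part of this in these values was not tested. The bin at -300 kb that led the flatter stretch also had high local contact, 24.6% in wild type limb and 20.6% in ES cells.

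In percent of a bin's whole total, few bins differed between maps by 0.32 or more on the log2 scale in either direction. In wild type midbrain against wild type limb no bin did (0 of 270, 0%). For limb i4i5 (0%), limb i4i5ZRS (0%), limb i4i5ZRSreg (0%), ZRSreg (0%) and the Lmbr1 promoter deletion (0%), each against wild type limb, the count was also 0. ES cells had 2 such bins against wild type limb (0.741%), both higher and both in the upper flank. One was chr5:30060001-30070000 at 1270 kb, with 21.2% against 16.7% (log2 ratio 0.34, 0.26 to 0.43). The other was chr5:29940001-29950000 at 1150 kb, with 26.6% against 21.2% (0.33, 0.27 to 0.39). Midbrain i4i5ZRS had 1 against wild type midbrain (0.37%), the bin at 870 kb described next. The threshold compares single maps and is a size, not a test. The counts depended on the total used. Without the bin and its 2 neighbours in it, 6 of the 8 counts were higher, that of ES cells by the most.

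The ZRS window, 5 bins from 830 to 870 kb (chr5:29620001-29670000) placed from general knowledge of where the enhancer lies, had more local contact in the 4 maps with the i4i5 deletion than in the other 4 tissue maps. Its level was 13.4% in wild type midbrain, 13.7% in wild type limb, 14.3% in ZRSreg and 14.4% in the Lmbr1 promoter deletion. With the i4i5 deletion it was 16.4% in midbrain, and in limb 14.8% (i4i5), 15.7% (i4i5ZRS) and 16.2% (i4i5ZRSreg). The nearest maps of the 2 sets, limb i4i5 and the Lmbr1 promoter deletion, differed little. Their log2 ratios to wild type limb had overlapping intervals (0.03 to 0.20 and 0.01 to 0.13). ES cells had 16.1%. ES cells, which have no deletion, lay among the maps with it. The labels give no coordinates for the deletions, so bins with deleted sequence were not left out, and the part of such sequence in these values was not tested.

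Relative to each map's own mean over 270 bins, the tissue maps with and without the deletion did not overlap either, and ES cells lay between them. The window had 0.734 times the map mean in wild type midbrain, 0.747 in wild type limb, 0.762 in the Lmbr1 promoter deletion and 0.763 in ZRSreg. ES cells had 0.846, and the maps with the i4i5 deletion 0.867 (limb i4i5), 0.886 (limb i4i5ZRSreg), 0.890 (limb i4i5ZRS) and 0.910 (midbrain i4i5ZRS). In limb i4i5 the window was higher while the mean of all bins was lower (log2 ratios to wild type limb 0.11 and -0.10). In percent, the bins at 810 and 820 kb, outside the window, also separated the tissue maps. Those from 930 to 990 kb were lower with the deletion than in all other maps. This was not particular to that stretch, and bins further up the flank split likewise, among them those at 1030, 1140 and 1150 kb. At 1150 kb the values were 20.8% or less with the deletion and 21.2% or more without it. Inside the window, the bins at 830 and 840 kb did not separate them. Limb i4i5 had 14.5% and 13.2% there, and the Lmbr1 promoter deletion 14.7% and 13.8%. How many of all bins separate these maps was not counted.

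Against their references the log2 ratios of the window were 0.11 (0.03 to 0.20) for limb i4i5, 0.19 (0.13 to 0.26) for limb i4i5ZRS, 0.24 (0.19 to 0.30) for limb i4i5ZRSreg and 0.29 (0.22 to 0.36) for midbrain i4i5ZRS. For comparison, the mean over all 270 bins was -0.10, -0.06, 0.00 and -0.02 in the same order. ES cells were at 0.23 (0.17 to 0.29), ZRSreg at 0.06 (0.00 to 0.12), the Lmbr1 promoter deletion at 0.07 (0.01 to 0.13) and wild type midbrain at -0.03 (-0.10 to 0.03). All 5 bins of the window were higher in limb i4i5ZRS, limb i4i5ZRSreg and midbrain i4i5ZRS, and 4 of 5 in limb i4i5. The limb comparisons share the wild type limb map, so they are not independent of each other.

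Partners on both sides of the window had ratios above 0. For midbrain i4i5ZRS, partners above gave a log2 ratio of 0.27 and partners below 0.31, and for limb i4i5ZRSreg 0.23 and 0.26. In midbrain i4i5ZRS the bin at 870 kb, chr5:29660001-29670000, had 16.9% against 13.0% (log2 ratio 0.38, 0.26 to 0.50). In limb i4i5 the window rested on 4017 contacts, against 10800 in wild type limb, and on counts without balancing its ratio was 0.03 in place of 0.11. Against the mean of ZRSreg and the Lmbr1 promoter deletion, which share its strain label, it was 0.05, and limb i4i5ZRS and limb i4i5ZRSreg were at 0.13 and 0.18.

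**Figure D5:**
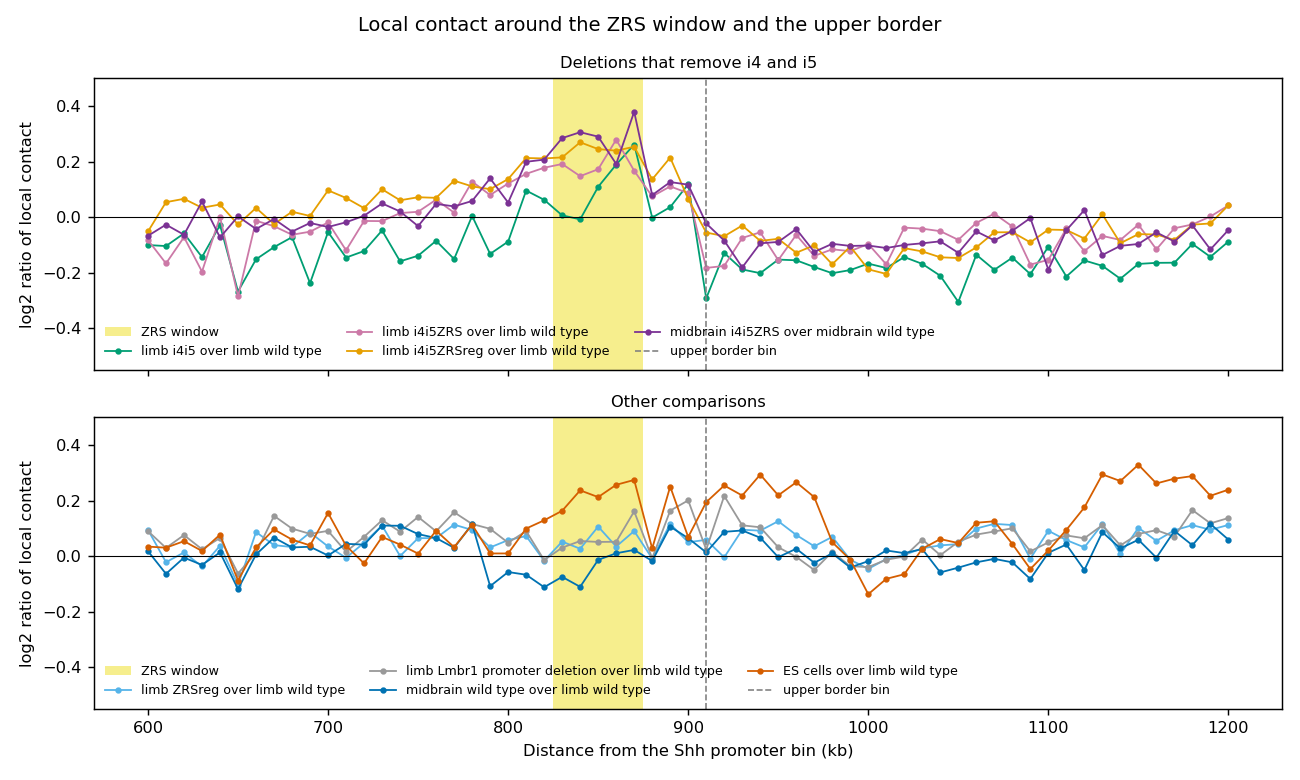
Log2 ratio of local contact to the reference map for bins 600 to 1200 kb from the Shh promoter bin, in the maps with the i4i5 deletion (top) and the other comparisons (bottom), 1 point per bin, with the ZRS window shaded and the upper border bin dashed. The 4 lines at the top are mostly above 0 in the window and below 0 at the border bin, and ES cells are also above 0 in the window.

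Above the window most bins were lower than the reference in the maps with the i4i5 deletion. Of 85 bins in the upper flank, 17 were higher in midbrain i4i5ZRS, and for limb 4 (i4i5), 9 (i4i5ZRS) and 22 (i4i5ZRSreg). Over all 270 bins the counts were 101, 24, 44 and 126 in the same order, so limb i4i5 and limb i4i5ZRS were lower along most of the locus. The upper border bin at 910 kb had 14.1% in wild type limb and 11.5% in limb i4i5 (log2 ratio -0.29, -0.45 to -0.14), 1 of the 3 lowest ratios of that comparison. The bin had 12.4% in limb i4i5ZRS, 13.5% in limb i4i5ZRSreg, 14.0% in midbrain i4i5ZRS, 14.2% in wild type midbrain, 14.3% in the Lmbr1 promoter deletion, 14.7% in ZRSreg and 16.1% in ES cells. In limb i4i5ZRSreg the 3 lowest ratios were all in the upper flank, at 980, 1000 and 1010 kb (-0.17, -0.19 and -0.20). The 3 highest of each of the 4 comparisons with the deletion lay between 820 and 900 kb.

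The other comparisons had their extremes elsewhere. ZRSreg was highest at 140 kb (18.0% against 15.5%, log2 ratio 0.22) and the Lmbr1 promoter deletion at 30 kb (15.3% against 12.7%, 0.27), both in the lower part of the domain. Wild type midbrain was lowest against limb just below the Shh promoter, at -80, -120 and -100 kb (-0.22, -0.18 and -0.16). ES cells were lowest at 130 kb (15.0% against 17.9%, -0.26), at -300 kb (-0.26) and at the Shh promoter bin itself (-0.24).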

How the data were processed

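Capture Hi-C was made from limb buds, midbrain and ES cells. Per the labels' protocols, DpnII digested the formaldehyde-fixed chromatin, and SureSelect beads enriched the religated DNA. The submitters' processing notes name the build mm9 and the tools SAMtools, Juicer, Bowtie2 (2.3.4.1) and cutadapt (1.15), without settings. The authors deposited 1 balanced signal for each pair of 10 kb bins in each merged map (the deposited file names say KR). This makes equal all bin totals within a map (7602 to 20135 between maps).

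Unlisted pairs were taken as 0. Each value is a whole count times 2 bin factors, so counts were recovered (100% within 0.01 of whole numbers). Counting intervals take the factors as known. Slopes are least squares fits of log10 mean signal on log10 separation. On simulated maps of known slope, without domains or borders, the fits were tested and recovered the slopes. Maps with such structure were not simulated. The named bins followed a rule: the 5 highest and 5 lowest by mean local contact, the Shh promoter, ZRS window and border bins, and 3 extremes per comparison. Members, rule and lists were chosen with earlier results of these data known. The flatter stretch and the 0.5 to 1 Mb slope were added after the curves were seen. Python 3.11.15, numpy 2.4.6, scipy 1.17.1 and matplotlib 3.10.9 were used. The series design calls mutant samples technical and wild type ones biological replicates, though the titles of 2 wild type limb samples hold 1 common library number.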

Additional observations from a re-analysis of the deposited data

Results flagged for a closer look

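The i4i5ZRS deletion was mapped in 2 tissues, and its difference from wild type had opposite signs in the middle range. From 100 to 500 kb the slope was flatter than wild type by 0.0193 in limb (0.0093 to 0.0293) and steeper in midbrain (difference -0.0213, -0.0319 to -0.0107). The limb change minus the midbrain change was 0.0406. Each side depended on a setting: the midbrain change was -0.00041 with medians over bin pairs, and the limb change 0.00386 on counts without balancing. With 1 merged map per group this difference was not tested, and the wild type maps are C57BL/6 while the deletion maps are G4.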

How the results depend on the processing

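No paired analysis was possible because the libraries of each group were merged into 1 map before deposit and no library can be left out of a merged map. Precision is limited by counts, least in ES cells and most in limb i4i5. Causes of the changes below were not tested. Slope differences are to wild type limb, or wild type midbrain for midbrain i4i5ZRS, and ratios are log2.

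The short range slopes of limb i4i5ZRS and limb i4i5ZRSreg turned from steeper to flatter, 0.0626 and 0.0340, against the mean of the limb maps ZRSreg and Lmbr1 promoter deletion. In the middle range, the difference with medians over bin pairs was 0.00297 (midbrain), -0.189 (ES cells), 0.120 (limb i4i5), 0.0412 (limb i4i5ZRS), 0.0733 (limb i4i5ZRSreg) and -0.00041 (midbrain i4i5ZRS). On counts without balancing it was 0.00481 (midbrain), 0.00386 (limb i4i5ZRS), 0.0350 (limb i4i5ZRSreg), -0.00127 (ZRSreg) and -0.00679 (Lmbr1 promoter). With classes of equal log width it was 0.00335 (midbrain), -0.133 (ES cells) and -0.00851 (Lmbr1 promoter).

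The long range slope depended most on its settings. From 0.5 to 1.5 Mb the difference was -0.0213 (midbrain), -0.350 (ES cells), -0.0436 (limb i4i5ZRS), 0.138 (limb i4i5ZRSreg), 0.0870 (ZRSreg), 0.0791 (Lmbr1 promoter) and -0.0132 (midbrain i4i5ZRS). From 0.5 to 1 Mb, chosen after seeing the data, it was -0.0300 (midbrain), -0.418 (ES cells), 0.0758 (limb i4i5), 0.0490 (limb i4i5ZRSreg), 0.0776 (ZRSreg), 0.0611 (Lmbr1 promoter) and -0.0437 (midbrain i4i5ZRS). With classes of equal log width it was 0.147 (midbrain), -0.135 (ES cells), 0.174 (limb i4i5), -0.0396 (limb i4i5ZRS), 0.144 (limb i4i5ZRSreg) and 0.0915 (Lmbr1 promoter). With medians over bin pairs it was -0.0024 (limb i4i5), -0.108 (limb i4i5ZRS), 0.0785 (limb i4i5ZRSreg) and -0.0338 (midbrain i4i5ZRS). On counts without balancing it was 0.0843 (midbrain), -0.184 (ES cells) and 0.186 (limb i4i5ZRSreg). Against the other G4 limb maps it was 0.0261 (limb i4i5), -0.113 (limb i4i5ZRS) and 0.0667 (limb i4i5ZRSreg).

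Mean local contact with the bin and its 2 neighbours left out of the total was 0.0445 (midbrain), 0.163 (ES cells), -0.146 (limb i4i5), 0.0483 (limb i4i5ZRS), 0.0153 (limb i4i5ZRSreg), 0.0922 (ZRSreg), 0.134 (Lmbr1 promoter) and 0.0103 (midbrain i4i5ZRS). With partners 20 to 100 kb away it was -0.0266 (midbrain), -0.0832 (limb i4i5), -0.0789 (limb i4i5ZRS), -0.0349 (limb i4i5ZRSreg), -0.0104 (ZRSreg) and -0.0146 (Lmbr1 promoter). Against the other G4 limb maps it was -0.137 (limb i4i5), -0.0948 (limb i4i5ZRS) and -0.0380 (limb i4i5ZRSreg).

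With that smaller total, the bins past 0.32 (log2) numbered 36 (ES cells), 4 (limb i4i5ZRS), 4 (midbrain i4i5ZRS), 2 (limb i4i5), 1 (Lmbr1 promoter) and 1 (limb i4i5ZRSreg). All numbers of bins here are out of 270. Counts without balancing gave 3 in limb i4i5 and the G4 reference 5. Partners 20 to 100 kb away gave 1 in limb i4i5ZRS and 0 in ES cells and midbrain i4i5ZRS, and a 1.5-fold threshold gave 0 in both.

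For the ZRS window the smaller total gave 0.381 (ES cells), 0.331 (limb i4i5ZRS), 0.303 (limb i4i5ZRSreg) and 0.137 (Lmbr1 promoter). Partners 20 to 100 kb away gave 0.153 (ES cells), -0.0041 (ZRSreg) and -0.0080 (Lmbr1 promoter), counts without balancing 0.0251 (limb i4i5), and the G4 reference 0.128 (limb i4i5ZRS) and 0.179 (limb i4i5ZRSreg). The decay at 20 kb reversed with the smaller total to 0.0814 (limb i4i5ZRS) and 0.0095 (midbrain i4i5ZRS). Of the 24 ratios of decay at 20, 200 and 1000 kb, 15 others moved beyond counting error with that total, among them limb i4i5 at 200 kb, from 0.02 to -0.02. No other difference that was beyond counting error changed sign. Of those within it, the Lmbr1 promoter middle range slope, the midbrain i4i5ZRS long range slope, mean local contact of limb i4i5ZRSreg, limb i4i5 at 200 kb and ZRSreg at 1000 kb changed sign in at least 1 setting.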

Other observations

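Pairs within the same bin, which the decay leaves out, held 9.68% of all signal in limb i4i5ZRSreg, 9.76% in limb i4i5, 10.4% in wild type limb, 11.1% in ZRSreg, 12.01% in wild type midbrain, 12.2% in the Lmbr1 promoter deletion, 13.2% in ES cells and in midbrain i4i5ZRS, and 13.9% in limb i4i5ZRS. Pairs beyond 2 Mb, also outside the decay, held between 0.462% (ES cells) and 0.976% (limb i4i5).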
